A study of Rattus norvegicus with 12 samples.

Results

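Myocardin and the smooth muscle genes it is known to switch on were followed in the left ventricle of 12 rats with or without heart failure after myocardial infarction. The set holds 9 of the 34700 genes in the deposited table, selected by their symbols: Myocd, Srf, Acta2, Tagln, Cnn1, Myh11, Lmod1, Smtn and Des. The symbols were chosen by reference to measured values, with earlier results of this table known, and which of those values led to the choice is not recorded. All differences between groups are therefore given as a description of these rats, and the p-values printed beside them come from a fit over all genes tested and are no independent support for the choice.

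All rats were male Sprague-Dawley, operated on at an age of 8 weeks, with hearts taken 12 weeks after surgery. The Sham group (3 rats) had a thread passed without tying the artery and was not exercised. The HF group (3 rats) had the left anterior descending coronary artery ligated and stayed sedentary. The study's methods give water by gavage to Sham and HF rats of the BAIBA experiment. Whether the Sham and HF rats sequenced here received it is not stated. The HFE group (3 rats) had the same ligation and was exercised, with daily treadmill sessions of 60 min, 5 per week, over 8 weeks. The BAIBA group (3 rats) had the same ligation and was not exercised. It received β-aminoisobutyric acid, a small metabolite of valine and thymine breakdown, at 75 mg/kg a day by gavage for 8 weeks. RNA came from the anterior wall of the left ventricle. The study's methods place the BAIBA samples around the infarct, whereas its results place both the HF and the BAIBA samples there. For the HFE samples this is not stated. Treatment and sampling place therefore cannot be told apart for BAIBA against HFE or Sham. By the methods' account the same holds for BAIBA against HF. The p-values measure the spread between these rats, which may include technical variation. In these bulk samples fewer cells of a type and less RNA per cell cannot be told apart.

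Myocardin is a coactivator with no DNA binding of its own. It docks on serum response factor, the Srf product, which binds a short element called the CArG box in the promoters of actins, smooth muscle myosin, transgelin and calponin. In a ventricle the contractile genes are among the markers of vessel wall smooth muscle, and which cells expressed them here was not measured. Myocd, Srf and Des are also used by cardiomyocytes.

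Each library held 14812541 to 19732588 counts assigned to genes, and all 9 members passed the filter on low counts in all 6 comparisons. Levels between rats are given in CPM, the counts of a gene relative to the library total after scaling by the trimmed mean of M-values (TMM), and levels between genes only in FPKM, which also divides by gene length. The 7 cardiomyocyte markers summed to between 22000 and 26851 FPKM over the 12 rats, and the 8 pericyte markers to between 243 and 378 FPKM. BAIBA rat 1 stood apart in non-muscle markers, in both directions. It had the highest sums for fibroblast (777 FPKM), macrophage (47.9 FPKM) and mesothelial (40.6 FPKM) genes. Its endothelial sum (133 FPKM) was the lowest of the 12 rats, and its pericyte sum (243 FPKM) was near the lowest. HFE rat 3 stood apart in growth-responsive genes, described beside Srf.

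The levels of the members spanned a wide range. Des, the intermediate filament desmin, was highest with a mean of 640 FPKM over the 12 rats and a range of 567 to 735. Smtn averaged 33.1 FPKM, Acta2 31.4 FPKM and Tagln 27.5 FPKM, and the ranges over rats of these neighbours overlapped. Srf (16.9 FPKM) and Myh11 (16.2 FPKM) followed, also with overlapping ranges. Myocd averaged 8.68 FPKM and ranged from 5.35 to 12.2, reaching into the range of Myh11, which began at 8.90. Cnn1 (1.52 FPKM) and Lmod1 (1.42 FPKM) were lowest and could not be ordered.

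Myocd was lowest in the BAIBA group. Its level was 62.8, 41.5 and 36.2 CPM in Sham rats 1 to 3, 33.1, 60.7 and 53.4 CPM in HF rats 1 to 3, 48.7, 54.0 and 56.1 CPM in HFE rats 1 to 3, and 29.9, 28.2 and 28.3 CPM in BAIBA rats 1 to 3. The 3 BAIBA rats were the lowest of the 12, with their highest value of 29.9 CPM under the lowest value of 33.1 CPM in the other 9 rats. The group means were 46.8 ± 14.1 CPM in Sham, 49.0 ± 14.3 CPM in HF, 52.9 ± 3.83 CPM in HFE and 28.8 ± 0.948 CPM in BAIBA (SD, n = 3 each). Sham, HF and HFE overlapped, and Sham rat 1 and HF rat 2 held the highest values of all.

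Against HFE, Myocd was lower in BAIBA by a log2 fold change of -0.87 (SE 0.0960, 95% interval -1.10 to -0.65, 0.545 times the HFE level). The p-value from edgeR's quasi-likelihood test was 1.6e-05, the 8th smallest in that comparison, and 0.0291 after Benjamini-Hochberg adjustment over 14844 genes. Against HF the log2 difference was -0.77 (SE 0.211, adjusted p = 0.851) and against Sham -0.70 (SE 0.197, adjusted p = 0.54), with the groups not overlapping in either but the adjusted p missing the threshold. Without Sham rat 1, the highest of that group, the difference from Sham was -0.42 (adjusted p = 0.999). HF differed from Sham by 0.06 (SE 0.292) and HFE from HF by 0.11 (SE 0.213) on the log2 scale, both within their errors.

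The adjusted p of Myocd between BAIBA and HFE depended on the fit. It stayed under 0.05 in 8 of 17 settings. These 8 include the main fit and a fit without BAIBA rat 1 and HFE rat 3 together (0.0264), chosen after seeing the data. With single rats left out, the log2 difference lay between -0.93 and -0.83. The adjusted p then ran from 0.0384 (without BAIBA rat 1) to 0.188 (without HFE rat 2). It was 0.0649 without BAIBA rat 2, 0.153 without BAIBA rat 3, 0.0854 without HFE rat 1 and 0.0734 without HFE rat 3. A fit over all 12 rats gave 0.184, and limma on log2(FPKM + 1) gave 0.198. The direction was the same in all 17.

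Markers of other tissue were read beside Myocd, which atrial muscle also uses. The 4 atrial markers summed to 263, 13.9 and 16.1 FPKM in BAIBA rats 1 to 3, against 29.5 to 497 FPKM in Sham, 82.6 to 573 FPKM in HF and 30.8 to 208 FPKM in HFE, with 1 of the 4 at 0 in at least 1 rat. BAIBA rat 1, with an atrial sum inside the range of Sham and HF, had 29.9 CPM of Myocd, and BAIBA rats 2 and 3, with the lowest atrial sums, had 28.2 and 28.3 CPM. The 4 mesothelial markers summed to 40.6, 8.89 and 17.6 FPKM in BAIBA rats 1 to 3 and to between 6.93 and 11.2 FPKM in the other 9 rats, with 3 of the 4 at 0 in at least 1 rat. As a description over 12 rats, which share libraries and groups, the log2 sums had a Pearson r with Myocd of 0.46 for the atrial and -0.63 for the mesothelial markers. The part of either tissue in the Myocd difference was not tested.

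**Figure D1:**
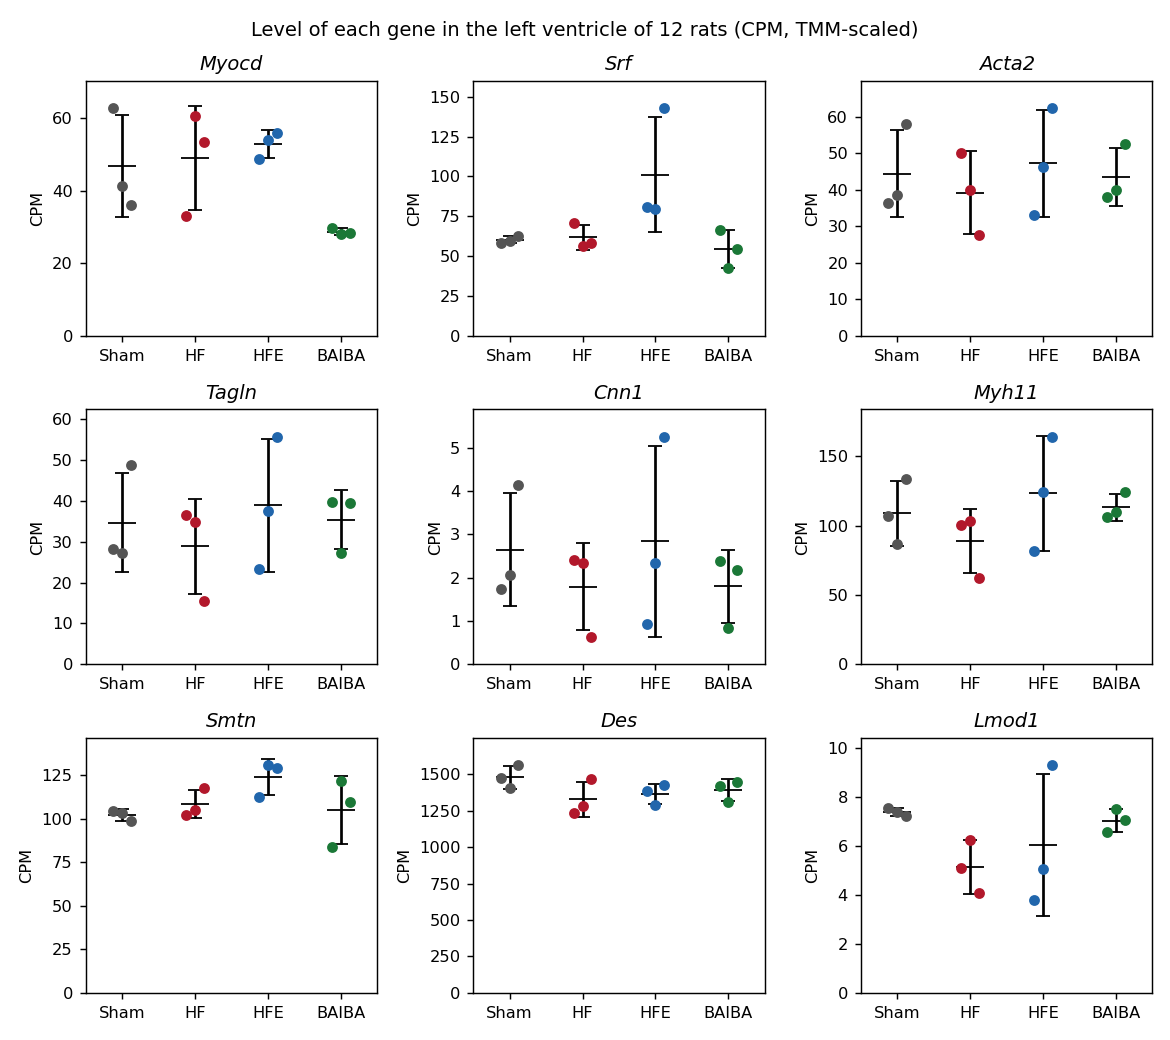
The 9 panels plot the level of each gene in CPM (vertical axis, from 0) for the 4 groups (horizontal axis), with 1 point per rat and black lines for the mean and SD of 3 rats. The BAIBA points of Myocd, at 28.2 to 29.9 CPM, lie under all other rats, while for Acta2, Tagln and Cnn1 the 4 groups overlap.

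Srf was highest in HFE. Its level was 80.9, 79.5 and 142.7 CPM in HFE rats 1 to 3, above all 9 other rats. It was 58.4, 59.6 and 62.9 CPM in Sham rats 1 to 3, 70.6, 56.6 and 58.1 CPM in HF rats 1 to 3, and 66.4, 42.5 and 54.8 CPM in BAIBA rats 1 to 3. Sham, HF and BAIBA overlapped, and BAIBA rat 2 was the lowest of the 12. The promoter window of Srf is printed because it holds a pair of CArG boxes of its own, shown in capitals: a pair of C, 6 bases of A or T, then a pair of G. It covers the 250 bases before the start point at chr9:21923826-21924075 (RefSeq, build GRCr8, plus strand), written 5′ to 3′.
Srf: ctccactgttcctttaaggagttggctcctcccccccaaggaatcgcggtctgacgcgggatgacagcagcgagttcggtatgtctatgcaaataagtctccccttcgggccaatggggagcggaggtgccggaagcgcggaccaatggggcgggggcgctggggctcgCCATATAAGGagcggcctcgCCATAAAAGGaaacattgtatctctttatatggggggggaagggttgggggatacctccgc

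Of 33469 rat promoter windows of the same length, 501 (1.5%) held such a box on either strand. A match describes the letters of the window and is not evidence of binding.

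Srf was higher in HFE than in HF by 0.71 on the log2 scale (SE 0.242, adjusted p = 0.627) and than in Sham by 0.75 (SE 0.235, adjusted p = 0.358). BAIBA lay below HFE by a log2 difference of -0.88 (SE 0.271, adjusted p = 0.353). HFE rat 3 carried much of this. Without it the difference was 0.38 from HF, 0.42 from Sham and -0.56 for BAIBA against HFE. Under DESeq2 the adjusted p for Srf was 0.0239 for BAIBA against HFE and 0.0453 for HFE against Sham.

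The growth-responsive genes, which Srf also drives with other partners, were highest in the same rat. Of 9 such genes in the table, 8 had their highest level in HFE rat 3. Egr1, an early response transcription factor, reached 269.9 CPM there, against 91.9 CPM in HF rat 1 and 9.20 to 31.1 CPM in the other 10 rats. Fos, a subunit of the AP-1 factor, reached 51.9 CPM in HFE rat 3, against 15.8 CPM in HF rat 1 and 1.05 to 7.36 CPM elsewhere. As a description over 12 rats, which share library depth and group, Srf had a Pearson r of 0.85 with Egr1 and 0.81 with Fos in log2 CPM (Spearman rho 0.80 and 0.76). Without HFE rat 3 these r fell to 0.60 and 0.53, and the part of that rat's growth-responsive genes in the Srf difference was not tested.

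**Figure D2:**
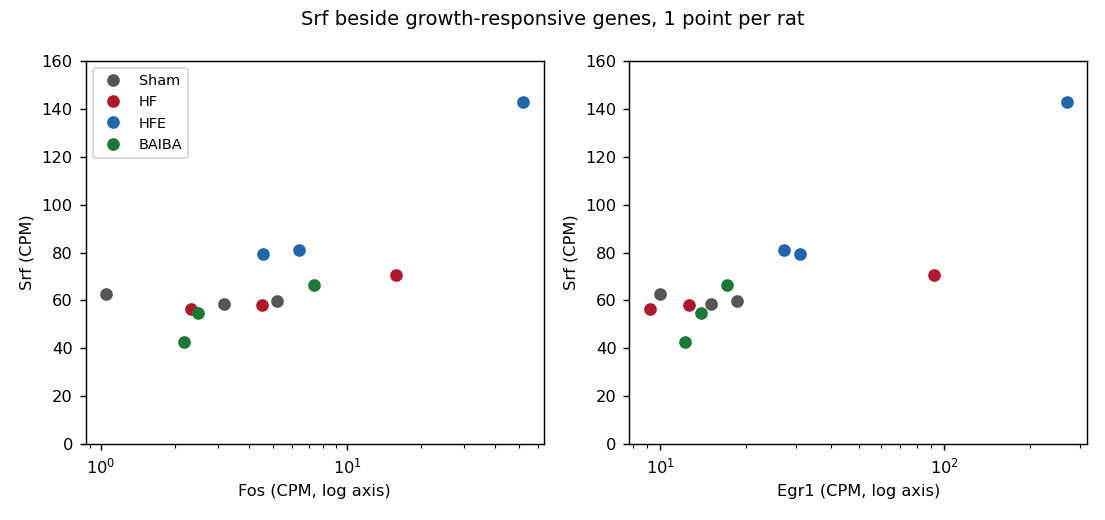
Srf in CPM (vertical axis) is plotted against Fos and Egr1 in CPM (horizontal log axes), with 1 point per rat coloured by group. HFE rat 3 lies alone at the upper right of both panels, at 142.7 CPM of Srf, and the other 2 HFE rats lie above the remaining 9 rats near 80 CPM of Srf.

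Acta2 encodes smooth muscle α-actin, a thin filament actin found in vessel walls. Its level was 36.5, 38.7 and 58.0 CPM in Sham rats 1 to 3, 50.2, 40.0 and 27.6 CPM in HF rats 1 to 3, 33.0, 46.4 and 62.3 CPM in HFE rats 1 to 3, and 38.1, 39.9 and 52.6 CPM in BAIBA rats 1 to 3. The 4 groups overlapped, and rats of 1 group differed by up to 1.89 times, in HFE. BAIBA differed from HFE by -0.12 (95% interval -0.66 to 0.43) and from HF by 0.15 (-0.39 to 0.68) on the log2 scale. The window before the Acta2 start is printed to show 2 near matches to the CArG box, in capitals, in each of which 1 of the 6 core bases is G or C. It lies at chr1:241172504-241172753 (RefSeq, build GRCr8, minus strand) and is written 5′ to 3′.
Acta2: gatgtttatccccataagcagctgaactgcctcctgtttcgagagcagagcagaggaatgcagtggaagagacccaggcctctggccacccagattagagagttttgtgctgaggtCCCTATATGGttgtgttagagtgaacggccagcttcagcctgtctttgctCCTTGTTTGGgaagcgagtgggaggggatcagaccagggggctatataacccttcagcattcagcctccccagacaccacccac

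Near matches of this kind were found in 6.84% of the 33469 windows, and 8.08% held an exact or a near match. The windows of Cnn1, Smtn and Des held neither, which says only that these letters are absent from 250 bases. Windows of Myocd, Tagln, Myh11 and Lmod1 were not analysed here, so that 5 of the 9 members were matched. Acta2 also shares sequence with other actins, and reads can be split between them uncertainly. Cardiac actin, Actc1, was 91.5 to 250.04 times as abundant as Acta2 in FPKM, with a Pearson r of 0.10 with Acta2 over 12 rats, and the enteric actin Actg2 had an r of 0.80.

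Tagln encodes transgelin, an actin-bundling protein. It stood at 28.2, 27.2 and 48.6 CPM in Sham rats 1 to 3, 36.4, 34.7 and 15.6 CPM in HF rats 1 to 3, 23.4, 37.5 and 55.6 CPM in HFE rats 1 to 3, and 39.7, 27.1 and 39.3 CPM in BAIBA rats 1 to 3. The groups overlapped, and the rats that were high or low were those of Acta2: HFE rat 3 and Sham rat 3 highest, HF rat 3 and HFE rat 1 lowest. BAIBA differed from HFE by -0.13 (95% interval -0.89 to 0.63) on the log2 scale.

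Cnn1 encodes calponin 1, which restrains actomyosin activity. It was scarce, at 1.73, 2.07 and 4.14 CPM in Sham rats 1 to 3, 2.41, 2.33 and 0.636 CPM in HF rats 1 to 3, 0.932, 2.35 and 5.26 CPM in HFE rats 1 to 3, and 2.40, 0.834 and 2.17 CPM in BAIBA rats 1 to 3. Its spread was the widest of the 9 genes, 8.27 times between the lowest and the highest rat and 5.64 times within HFE alone. Its intervals were correspondingly wide, from -2.14 to 0.84 around a log2 difference of -0.65 between BAIBA and HFE.

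Myh11 encodes the smooth muscle myosin heavy chain, the most specific of these markers for mature smooth muscle. It stood at 107.2, 86.6 and 133.4 CPM in Sham rats 1 to 3, 100.6, 103.7 and 62.3 CPM in HF rats 1 to 3, 81.6, 124.5 and 164.2 CPM in HFE rats 1 to 3, and 106.1, 109.8 and 124.4 CPM in BAIBA rats 1 to 3. The lowest BAIBA rat exceeded the highest HF rat, with a log2 difference of 0.35 (SE 0.195, adjusted p = 0.851), and no other pair of groups was separated. BAIBA and HFE differed by -0.12 (95% interval -0.66 to 0.42).

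Lmod1 encodes leiomodin 1, which nucleates actin filaments in smooth muscle. It was 7.56, 7.39 and 7.22 CPM in Sham rats 1 to 3, 5.10, 6.26 and 4.08 CPM in HF rats 1 to 3, 3.79, 5.05 and 9.31 CPM in HFE rats 1 to 3, and 6.58, 7.50 and 7.06 CPM in BAIBA rats 1 to 3. All HF rats lay below all Sham rats and all BAIBA rats, while HFE spread over the whole range. HF was lower than Sham by a log2 difference of -0.53 (SE 0.197, adjusted p = 0.805), and BAIBA was above HF by 0.45 (SE 0.212, adjusted p = 0.851).

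Smtn and Des varied least. Smtn encodes smoothelin, a cytoskeletal protein of contractile smooth muscle, and stood at 104.6, 103.1 and 98.5 CPM in Sham rats 1 to 3, 102.3, 105.0 and 117.7 CPM in HF rats 1 to 3, 112.2, 130.6 and 129.3 CPM in HFE rats 1 to 3, and 83.8, 121.8 and 109.3 CPM in BAIBA rats 1 to 3. HFE lay above Sham without overlap, by 0.29 on the log2 scale (SE 0.0830, adjusted p = 0.302). Des, shared by smooth and striated muscle, was 1472, 1404 and 1562 CPM in Sham rats 1 to 3, 1234, 1283 and 1467 CPM in HF rats 1 to 3, 1386, 1292 and 1425 CPM in HFE rats 1 to 3, and 1417, 1309 and 1449 CPM in BAIBA rats 1 to 3. The groups of Des overlapped in all comparisons, and its highest rat was 1.27 times its lowest.

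**Figure D3:**
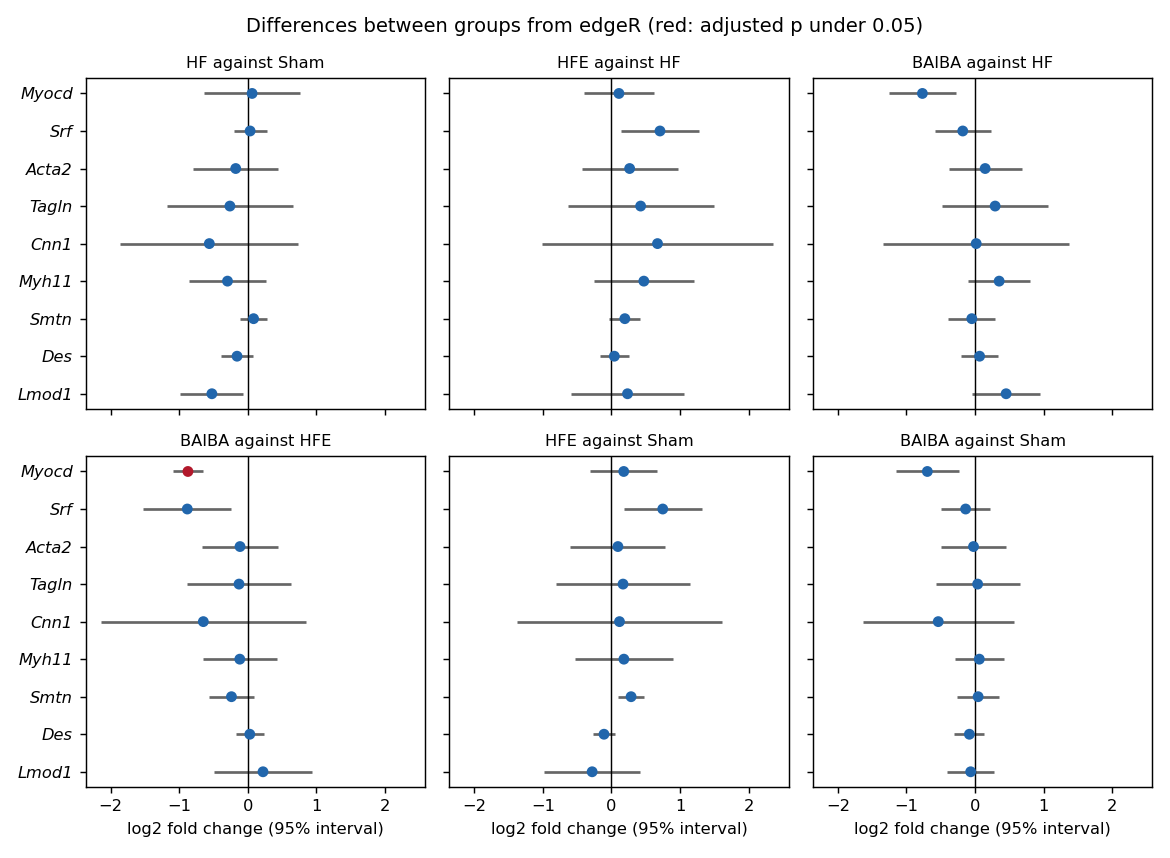
Each of 6 panels gives the log2 fold change of the 9 genes (horizontal axis, first group minus second) as a point with its 95% interval from edgeR, red where the adjusted p is under 0.05. The single red point is Myocd in BAIBA against HFE, at -0.87, and the intervals of Acta2, Tagln and Cnn1 cross 0 in all 6 panels.

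Counted as a set, few members separated the groups. A gene was called where its adjusted p was under 0.05 and its absolute log2 fold change over 1. By that rule edgeR called 0 of 9 members in each comparison, and so did DESeq2. Over all genes tested, edgeR called 0% by the rule between HF and Sham, HFE and HF, BAIBA and HF, and HFE and Sham. It called 0.0808% between BAIBA and HFE, and 0.0402% between BAIBA and Sham. With the adjusted p of edgeR alone, Myocd was the 1 member passing, in BAIBA against HFE, where 0.108% of genes passed. This edgeR share was 0.0402% for BAIBA against Sham, with 0 members, and 0% in the remaining comparisons. With the adjusted p of DESeq2, Myocd and Srf passed in BAIBA against HFE, and Srf in HFE against Sham. The share of all genes passing under DESeq2 is not given here.

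At an unadjusted p under 0.05 the members passing were few and are set against all genes. In HF against Sham 1 of 9 passed (Lmod1), beside 6.0% of all genes, and in HFE against HF 1 of 9 (Srf), beside 7.62%. In BAIBA against HF 1 of 9 passed (Myocd), beside 5.55%, and in BAIBA against Sham again Myocd, beside 7.41%. In BAIBA against HFE 2 of 9 passed (Myocd and Srf), beside 9.57%, and in HFE against Sham 2 of 9 (Srf and Smtn), beside 11.2%.

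Groups without overlap were counted in the same way. They held 1 of 9 members in HF against Sham (Lmod1, 11.8% of all genes), 1 in HFE against HF (Srf, 14.4%) and 1 in BAIBA against Sham (Myocd, 12.7%). They held 3 in BAIBA against HF (Myocd lower, Myh11 and Lmod1 higher, 11.4%), 2 in BAIBA against HFE (Myocd and Srf, both lower, 15.5%) and 2 in HFE against Sham (Srf and Smtn, both higher, 17.7%). Comparisons that share a group share its rats and are not independent of each other.

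The median log2 difference of the 9 members stayed small. It was -0.18 in HF against Sham, 0.26 in HFE against HF, 0.07 in BAIBA against HF, -0.13 in BAIBA against HFE, 0.17 in HFE against Sham and -0.06 in BAIBA against Sham. Over all genes the medians lay between -0.01 and 0.01. In HFE against HF all 9 estimates were above 0, and the 95% intervals of the 8 other than Srf included 0. Leaving out single rats turned the sign of 4 of them: Cnn1 (-0.12) and Lmod1 (-0.22) without HFE rat 3, and Myocd (-0.11) and Des (-0.0068) without HF rat 1.

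The contractile genes varied between rats of the same group, and together. HFE rat 3 was the highest of the 12 for Acta2, Tagln, Cnn1, Myh11 and Lmod1, and Sham rat 3 was the next highest for the first 4. HF rat 3 was the lowest of the 12 for Acta2, Tagln, Cnn1 and Myh11 and the 2nd lowest for Lmod1, and its library was the deepest at 19732588 counts. HFE rat 1 was the 2nd lowest for Acta2, Tagln and Myh11, the 3rd lowest for Cnn1 and the lowest for Lmod1. The share of the variance in log2 CPM that lay within groups had a median of 70.3% over all genes kept. It was 91.5% for Acta2, 87.7% for Tagln, 88.3% for Cnn1 and 74.95% for Myh11. For Lmod1 the share was 64.3%, below that median. For Smtn it was 59.5%, for Des 63.0%, for Myocd 37.1% and for Srf 36.4%.

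The same pattern was seen in correlations over the 12 rats, which share libraries, depth and groups and are given as a description. Acta2, Tagln, Cnn1 and Myh11 had Pearson r of 0.81 to 0.93 in their 6 pairs (Spearman rho 0.61 to 0.92), 0.87 to 0.98 with group means removed, and 0.73 to 0.86 without the 2 rats farthest from the median. Lmod1 had r of 0.59 to 0.71 with these 4. Myocd with the 7 targets gave r of -0.25 to 0.39 (Spearman rho -0.15 to 0.27), and -0.42 to 0.21 with group means removed. Without the 2 farthest rats the values for Myocd ran from -0.26 to 0.69, the highest being with Smtn. Unlike the 4 contractile genes with each other, Myocd had no r above 0.39 with any target over all 12 rats.

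**Figure D4:**
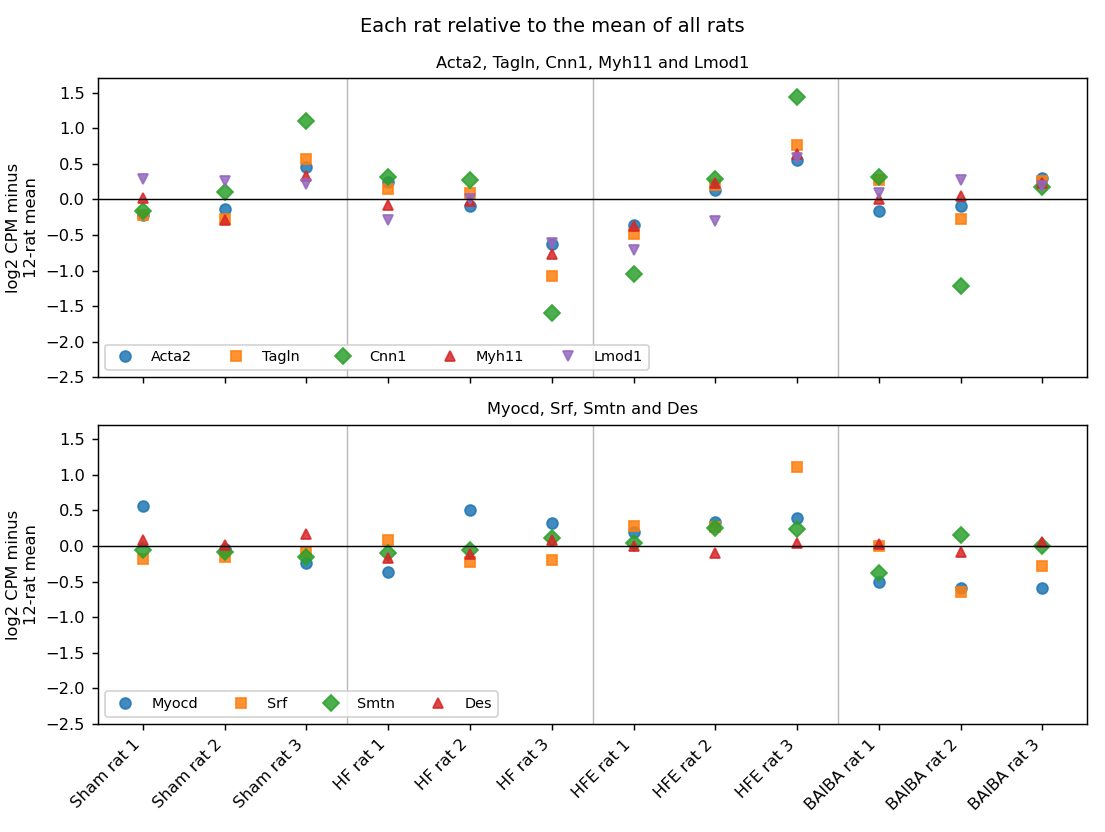
Each rat (horizontal axis, in groups of 3) is placed by its log2 CPM minus the mean of the 12 rats (vertical axis), for Acta2, Tagln, Cnn1, Myh11 and Lmod1 above and for Myocd, Srf, Smtn and Des below. In the upper panel all 5 genes lie above 0 in HFE rat 3 and below 0 in HF rat 3, and in the lower panel Myocd lies below 0 in all 3 BAIBA rats.

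Markers of other cells of the heart wall were read beside these genes. The summed pericyte markers had r of 0.18 with Myh11 over 12 rats and the endothelial markers -0.05. For cardiomyocyte markers this r was 0.47, for macrophage markers -0.45, for atrial markers -0.36 and for mesothelial markers 0.13. Fibroblast markers were lowest in HFE rat 3 (388 FPKM), where the contractile genes were highest, and their r with Myh11 was -0.53. The part of tissue composition in the spread between rats was not tested.

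The genes whose log2 CPM was most like that of Myh11 over 12 rats, among 15582 others, were Tagln (r 0.93), Acta2 (r 0.90), Pdgfb, a growth factor for mural cells (r 0.87), Myl9, the smooth muscle regulatory light chain (r 0.86), and Chordc1 (r 0.85). Cnn1 ranked 12 and Lmod1 49 in that order, while Myocd ranked 10289. Those most like Myocd were the unnamed gene AABR07005985.2 (r 0.91), Sh3bp5, Slc41a3, Iws1 and Adgrl2 (r 0.90 each), with no contractile target among them. Srf ranked 2087 and Smtn 2254 for Myocd, and Acta2 ranked 11456.

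Other genes of the pathway were counted from 4 lists. Of 22 further smooth muscle contractile genes, edgeR called 0 in all 6 comparisons. At an unadjusted p under 0.05, BAIBA against HFE had 1 higher (Aoc3) and 3 lower (Fhl2, Pdlim7 and Nexn), beside 9.57% of all genes. The list's median log2 difference was -0.09. Fhl2, a LIM protein that binds Srf and is abundant in cardiomyocytes, was lower in BAIBA than in HFE by a log2 difference of -0.60 (SE 0.103), with an adjusted p of 0.131 from edgeR, 0.0434 without the filter on low counts and 0.000138 from DESeq2. Actg2 had the largest estimate of this list between BAIBA and HFE (-0.80), with 7.09 CPM in HFE rat 3 and 1.07 to 4.40 CPM in the other 11 rats.

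Of 17 cofactors and modulators of Myocd and Srf, 0 were called by edgeR in any comparison, and DESeq2 gave Gata4 an adjusted p of 0.0374 in BAIBA against HFE. Gata4, a cardiac factor that binds beside Srf, was lower in BAIBA than in HFE (log2 difference -0.45, SE 0.106, edgeR adjusted p = 0.202). Nkx2-5, its partner in cardiac muscle, was also lower (-0.33, SE 0.122, adjusted p = 0.44). Klf4, a repressor of the contractile genes, stood at 186.8 CPM in HFE rat 3 and at 41.6 to 71.3 CPM in the other 11 rats.

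Of the 9 growth-responsive genes, 0 were called by edgeR, and DESeq2 called Egr3 in BAIBA against HFE (log2 difference -3.22, adjusted p = 0.00709). Their median log2 difference was 2.69 for HFE against Sham and -2.31 for BAIBA against HFE, and without HFE rat 3 these medians were 0.82 and -0.54. At an unadjusted p under 0.05, 2 of 9 were higher in HFE than in Sham (Fosb and Egr3), beside 11.2% of all genes in either direction. By the same cut, 2 of 9 were lower in BAIBA than in HFE (Egr1 and Egr3), beside 9.57%. For Egr1 the log2 difference between BAIBA and HFE was -2.91 (SE 1.09, adjusted p = 0.51). Without BAIBA rat 1 and HFE rat 3 together, a setting chosen after seeing the data, it was -1.16 (adjusted p = 0.0188).

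Of 11 sarcomeric targets, edgeR called 1, Myh7, in BAIBA against HFE and against Sham. DESeq2 also called Nppb in BAIBA against HFE and Myh7 in BAIBA against HF. Myh7, the slow cardiac myosin heavy chain, was lower in BAIBA than in HFE by a log2 difference of -2.08 (SE 0.128, adjusted p = 0.00237) and than in Sham by -1.17 (SE 0.102, adjusted p = 0.00864). The call against Sham was lost without Sham rat 1 (adjusted p = 0.0699), Sham rat 2 (0.0894) or Sham rat 3 (0.0568) and in the fit of all 12 rats (0.302), while the call against HFE held with each rat left out. In BAIBA against HF the main edgeR fit did not call Myh7. There DESeq2 gave a log2 difference of -1.89 (adjusted p = 4.46e-12), and the edgeR fit of all 12 rats an adjusted p of 0.0247. Myh7 stood at 3093, 3597 and 3553 CPM in BAIBA rats 1 to 3 and at 7445 CPM or more in the other 9 rats. Like Myocd, it was lowest in all 3 BAIBA rats. Nppb, which encodes B-type natriuretic peptide, had a log2 difference of -1.69 between BAIBA and HFE, with an adjusted p of 0.302 from edgeR and 0.0346 from DESeq2. Actc1, the cardiac actin, was lowest there too, at 5153 to 6184 CPM against 6437 to 8657 CPM, with a log2 difference of -0.60 from HFE (SE 0.104, adjusted p = 0.131 from edgeR, 0.0409 without the filter on low counts and 5.47e-05 from DESeq2). Of the 11 genes, 10 were lower in BAIBA than in HFE by estimate, and the list's median was -0.34. At an unadjusted p under 0.05, 6 were lower and 1 was higher, beside 9.57% of all genes in either direction.

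Reads of 3 members can include those of a neighbour, since the RefSeq annotation of GRCr8 places a long non-coding RNA across Myocd, Des and Lmod1 and the strand used in counting is not stated.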

How the data were processed

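RNA of the left ventricle of 12 rats was sequenced as poly(A)-selected, paired-end libraries. Per the study's methods, the authors aligned reads with HISAT2, assembled transcripts with StringTie and counted reads per gene with featureCounts (versions not given in the sources used here). The deposited raw counts per gene and the FPKM values the authors derived from them were used, and the counts in both tables were the same. The labels list the mouse build mm9 although the gene identifiers are those of rat Ensembl, and the build was left unresolved. No per-sample column lacked a sample.

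Counts were compared between each pair of groups (3 against 3) with edgeR 4.0.16 in R 4.3.3 (filterByExpr, TMM, quasi-likelihood test, two-sided), with Benjamini-Hochberg adjustment over all genes tested. The call rule, an adjusted p under 0.05 with an absolute log2 fold change over 1, followed the study. DESeq2 1.42.0 and limma 3.58.1 on log2(FPKM + 1) were alternatives, and the steps were tested on simulated data. For correlations, log2 CPM was taken after adding a prior count (2). CArG boxes were searched on both strands of 250 bases before the start given by RefSeq (GRCr8). The members and lists of related genes were chosen with earlier results of these data known. The text names all members, and of the related genes those called, up to 3 with the largest differences in a comparison, the 5 most like Myocd and Myh11, and others chosen after their values were seen. Mrtfb, Prkg1 and Lmod2 were not analysed here. Replicate numbers were checked for pairing: rats with the same number deviated together in all 3 pairs for BAIBA and HFE alone (r 0.118 to 0.224), and the animals differ. Replicate pairs differed by more than counting noise, so no library was counted as a duplicate. Libraries held 14812541 to 19732588 counts.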

Additional observations from a re-analysis of the deposited data

How the results depend on the processing

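Over 54 pairs of a member and a comparison, 27 log2 differences kept their sign in every setting tried. Of the pairs, 3 had an adjusted p under 0.05 in any setting. The 819 alternative values were set against the SD only where neither they nor the main fit had an adjusted p under 0.05. Myocd in BAIBA against HFE was therefore not compared in this way. Among those compared, 1 moved by over 1 SD. This was Lmod1 in BAIBA against HFE, 0.72 without BAIBA rat 1 and HFE rat 3, a setting chosen after seeing the data. The log2 difference of Myocd between BAIBA and HFE ranged from -0.93 to -0.72, and its adjusted p rose above 0.05 with library size scaling alone (0.0557), in the fit of all 12 rats (0.184) and with limma on log2(FPKM + 1) (0.198) or log2(FPKM + 0.1) (0.149). With the replicate block it was -0.87 (adjusted p = 0.0428), and the block changed no count of called members or related genes. Without a limit on the fold change, 1 member passed in BAIBA against HFE with edgeR, and Srf passed beside it with DESeq2. Related genes called in BAIBA against HFE numbered 1 in the main fit, 3 under DESeq2 and 3 without BAIBA rat 1 and HFE rat 3. In BAIBA against HF they numbered 0 in the main fit, 1 under DESeq2 and 1 in the fit of all 12 rats. At an unadjusted p under 0.05 with the same limit on the fold change, they numbered 4 in BAIBA against HFE and 2 in BAIBA against HF. By that rule they numbered 2 in HF against Sham and 3 in HFE against Sham. The shares of all genes called in these alternative settings are not given here, so these counts cannot be set against them. In BAIBA against Sham the 1 called gene, Myh7, was lost in the fit of all 12 rats (0 called) and without any 1 of the Sham rats (0 to 1 over all rats left out in turn). The cause of these changes was not tested.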
